A study of Mus musculus with 48 samples.

Results

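Whole spinal cord of old mice in which microglia had been depleted and allowed to return was compared with whole spinal cord of untreated old mice. The comparison rests on 16 of the 48 libraries of polyadenylated RNA in the study, 8 repopulated and 8 old, chosen by their titles, and on 18271 of 35870 listed genes that had enough reads to be tested. All mice were wild type, of the C57BL/6 strain and male. Old mice were 23 months of age and received vehicle. Repopulated mice were also 23 months of age, received an inhibitor of the receptor Csf1r for 5 days and then had 7 days without it. Another 8 cord libraries of vehicle-treated young mice, 3 months of age, helped to estimate the spread between libraries. The other libraries are sorted brain microglia of the same 3 kinds of mouse. The labels name neither the inhibitor nor the animals behind each library, and the p-values thus reflect library-to-library spread, which may be technical. The cord was taken whole after perfusion with buffered saline, and the table therefore holds RNA of neurons, oligodendrocytes, astrocytes, vessels and nerve roots beside that of microglia.

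Microglia are the resident macrophages of the central nervous system and depend on signals through Csf1r for survival. An inhibitor of that receptor removes most of them, and after it is withdrawn the surviving cells divide and refill the tissue. Other macrophages that use Csf1r, such as those of the meninges and around vessels, can be affected as well. Type I interferons are cytokines that bind the receptor chains Ifnar1 and Ifnar2, activate the kinases Jak1 and Tyk2, and lead to the assembly of a factor that contains Irf9 and Stat2 and binds the interferon-stimulated response element, a short DNA motif. Genes induced by type I interferons encode sensors of foreign RNA, enzymes that block viral growth, and Irf7, which drives further interferon production. Interferon gamma acts through a related path and induces guanylate-binding proteins and genes of antigen presentation. Interferon-response genes are known to rise in aged brain tissue and in a subset of microglia.

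The libraries held from 22802459 to 31075737 counts in the old and from 15909868 to 33004806 in the repopulated group. Levels below are CPM, a library's counts scaled to a common total, after scaling by trimmed mean of M values (TMM). Repopulated replicate 6 stood apart before any test: ribosomal protein genes took 3.17% of its counts, against 1.09% to 1.27% in the other repopulated and 1.08% to 1.17% in the old libraries. Against the other 7 repopulated libraries its genes were higher by a median log2 of 0.73 among the shortest genes (3972 genes of up to 2188 bases) and lower among the longest (3972 genes of over 5631 bases), where the median was -0.52. The share of ribosomal protein counts did not separate the groups by an exact two-sided permutation test (p = 0.18, and p = 0.361 without that library). Each main count is therefore also given without replicate 6. Defining markers of cord tissue were present throughout, with Mbp at a minimum of 8272 CPM and Gfap at a minimum of 959 CPM in these 16 libraries.

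In repopulated cord a set of interferon-response genes was higher than in old cord, and no gene passed the test in the other direction. Of 18271 genes tested, 27 rose (0.148%) and 0 fell by edgeR's quasi-likelihood test at an adjusted p under 0.05. The rises were between 1.25-fold and 3.83-fold, and 9 of the 27 were at least 2-fold. Of those 9, Oas1a, Usp18, Ifit1 and Ifit3 were below 2-fold without repopulated replicate 6, at log2 0.87, 0.95, 0.97 and 0.81. Short genes were higher in that library, and 21 of the 27 were shorter than the median of tested genes at 1 CPM or more. At an unadjusted p under 0.05, 869 genes (4.76%) were higher and 230 (1.26%) lower. Without repopulated replicate 6, 31 genes rose (0.168% of 18401) and 0 fell, and 26 of the 27 genes were among them. The gene lost was Trim34a, and the 5 gained were Gbp6, Trim12a, Bst2, Xaf1 and 9630013A20Rik. DESeq2 called 62 genes higher and 4 lower, and limma-voom 52 higher and 1 lower; both included lower MHC class II genes, described below. In bulk tissue, a change in the number of cells of a type and a change in RNA per cell cannot be told apart.

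**Figure D1:**
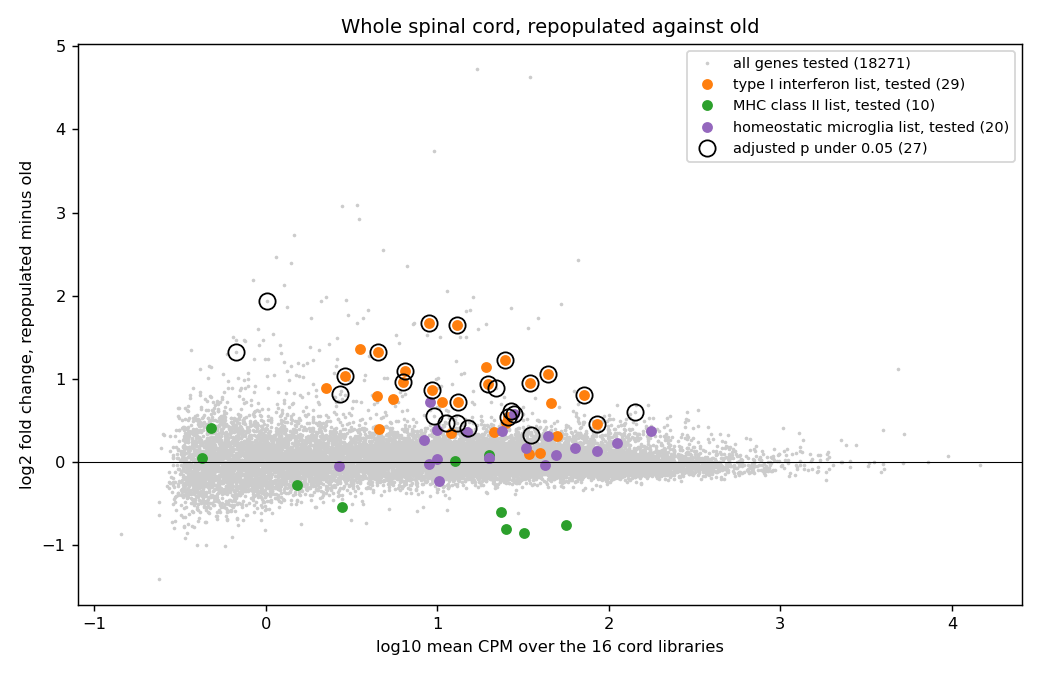
Log2 fold change of repopulated against old cord (vertical axis) against the log10 mean CPM over the 16 libraries (horizontal axis), with 1 point for each of 18271 genes tested. Coloured points are members of 3 gene lists and black rings mark the 27 genes with an adjusted p under 0.05, all of which lie above 0.

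Of a list of 30 type I interferon response genes, 29 were tested and Isg15 fell below the count filter. Of the 29, 15 rose, all 29 had a positive log2 fold change, and 27 were higher at an unadjusted p under 0.05. Over all genes tested, 0.148% rose and 4.76% were higher at that unadjusted p. The median log2 fold change of the list was 0.80, beside 0.01 over all genes tested, and 52.1% of all genes had a positive value. Without replicate 6, 17 members rose and the median was 0.75. The summed level of the list ran from 464 to 612 CPM in old cord, with a median of 483, and from 581 to 1113 CPM in repopulated cord, with a median of 799. Repopulated replicate 7, at 581 CPM, lay below old replicate 3, at 612 CPM, and the other 7 repopulated libraries were above every old library. The list and its members were chosen with earlier results of these data known.

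The transcription factors of the pathway were among the genes that rose. In old cord Irf7, which drives the amplification of the interferon response, ran from 4.96 to 7.84 CPM with a median of 6.13, and in repopulated cord from 8.83 to 42.9 CPM with a median of 17.5. All 8 repopulated libraries were above the highest old library, with replicate 6 far above the rest and replicate 7 closest to the old range. The fold change was 3.14 (log2 1.65, SE 0.23, adjusted p = 0.00304), and log2 1.39 without replicate 6 (adjusted p = 0.000845). Irf9, the main DNA-binding subunit of the factor described above, ran from 18.9 to 25.4 CPM in old (median 20.3) and from 22.8 to 34.7 CPM in repopulated cord (median 30.9). Only repopulated replicate 7 lay within the old range, and the log2 fold change was 0.54 (SE 0.08, adjusted p = 0.00431). Stat2, which joins Irf9 in that factor, was at log2 0.31 (SE 0.11) with an adjusted p of 0.681.

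**Figure D2:**
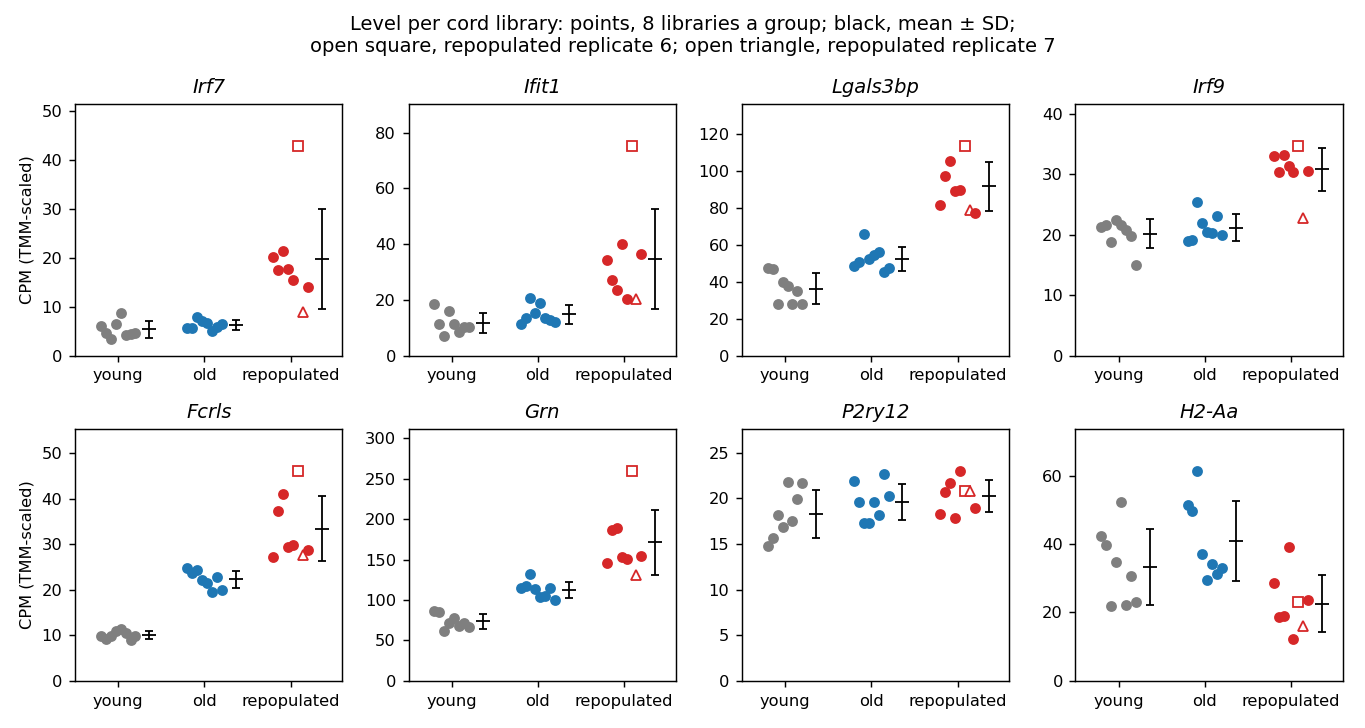
Level of 8 genes in CPM (vertical axes, from 0) in each of the 24 cord libraries, by group (horizontal axes). Points are libraries, black marks are the mean and SD of 8 libraries, and open symbols are repopulated replicates 6 and 7. Irf7 in repopulated cord lies above all old libraries, P2ry12 overlaps, and H2-Aa is lower without passing the test.

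The proximal promoters of these genes were read for the core of the interferon-stimulated response element, GAAA and GAAA with any 2 bases between them, on both strands, in RefSeq windows from 250 bases before to 50 bases after the gene start (GRCm38.p6). Of the 27 genes, 19 matched the table, and 10 of those (52.6%) held the motif in a window. Among all genes tested that matched, 517 of 13993 (3.69%) held it. In the interferon list the motif was in 5 of 10 matched members that rose and in 7 of 11 that were not called. It was in the windows of Ifit1, Ifit3, Ifit3b, Oas1a, Irgm1, Gbp3, Slfn9, Trim30a, Trim34a and H2-T22. The other matched genes that rose held it in no window: Irf7, Irf9, Oasl2, Ifi44, Herc6, Lgals3bp, Gm5431, Fcrls and Grn. Interferon-response genes were thus in both groups. A match is a run of letters and not a measured binding site. The 200 bases before the gene start are shown for 4 genes that rose and hold the motif, with each match in capitals, and for 2 that rose without it, to show how the matches sit; TTTC and TTTC with 2 bases between them is the same motif on the opposite strand. Positions of matches are counted from the gene start.
Ifit1 (chr19:34640689-34640888, + strand): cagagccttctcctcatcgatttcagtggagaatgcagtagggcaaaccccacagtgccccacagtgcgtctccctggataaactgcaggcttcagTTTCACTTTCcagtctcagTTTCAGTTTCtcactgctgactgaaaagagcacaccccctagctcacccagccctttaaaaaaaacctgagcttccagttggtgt
Ifit3 (chr19:34583329-34583528, + strand): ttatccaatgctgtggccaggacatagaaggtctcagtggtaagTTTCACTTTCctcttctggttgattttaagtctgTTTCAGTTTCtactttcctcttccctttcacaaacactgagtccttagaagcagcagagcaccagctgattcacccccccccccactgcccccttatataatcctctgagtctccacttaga
Oas1a (chr5:120907526-120907725, - strand): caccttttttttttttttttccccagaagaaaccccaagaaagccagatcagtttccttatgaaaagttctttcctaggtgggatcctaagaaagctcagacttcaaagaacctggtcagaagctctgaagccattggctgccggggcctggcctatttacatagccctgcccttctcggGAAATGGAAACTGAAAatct
Irgm1 (chr11:48871421-48871620, - strand): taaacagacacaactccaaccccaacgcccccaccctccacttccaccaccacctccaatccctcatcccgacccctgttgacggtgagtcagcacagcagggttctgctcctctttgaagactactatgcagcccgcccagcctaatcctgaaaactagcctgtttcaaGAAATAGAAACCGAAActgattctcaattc
Fcrls (chr3:87263525-87263724, - strand): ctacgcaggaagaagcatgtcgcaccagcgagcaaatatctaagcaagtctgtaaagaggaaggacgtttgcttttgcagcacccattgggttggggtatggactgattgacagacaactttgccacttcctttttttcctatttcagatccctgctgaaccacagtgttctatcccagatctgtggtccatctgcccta
Grn (chr11:102430307-102430506, + strand): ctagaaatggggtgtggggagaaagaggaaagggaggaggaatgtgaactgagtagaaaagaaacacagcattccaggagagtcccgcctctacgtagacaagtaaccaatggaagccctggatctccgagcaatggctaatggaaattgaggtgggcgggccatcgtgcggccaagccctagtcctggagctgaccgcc
In Ifit1 the matches begin at bases -104 and -85, and in Ifit3 at -156 and -122; in both genes the first reads TTTCACTTTC and the second TTTCAGTTTC. In Oas1a, at -20 and -14, and in Irgm1, at -30 and -24, the 2 matches overlap by a shared GAAA.

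Of the Ifit genes, whose products bind foreign RNA, Ifit1, Ifit3 and Ifit3b, which lie close to each other on chromosome 19, rose, and Ifit2 was not called. Ifit1 ran from 11.4 to 20.5 CPM in old cord (median 13.5) and from 20.3 to 75.4 CPM in repopulated cord (median 30.7). Its log2 fold change was 1.23 (SE 0.23, adjusted p = 0.0203), and 6 of 8 repopulated libraries were above every old one. Ifit3 went from a median of 28.5 CPM (20.97 to 36.5) to 50.1 CPM (33.8 to 126), a log2 of 1.06 (adjusted p = 0.0265). Of 16 fits that left out 1 library, Ifit1 was called in 11 and Ifit3 in 8. For Ifit1 and Ifit3, replicate 6 held the highest level, and without it the log2 values were 0.97 and 0.81. Ifit3b, at log2 0.94 (adjusted p = 0.00431), is a near copy of Ifit3, and how reads were shared between them is not given in the sources used here. Ifit2, which the same list holds, was at log2 0.10 (SE 0.09, adjusted p = 0.702), with a median of 32.9 CPM in old and 36.4 CPM in repopulated cord.

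Of the oligoadenylate synthetases, enzymes whose product activates an RNase that cuts viral and host RNA, Oas1a and Oas2 rose, as did the related Oasl2. Oas1a went from a median of 1.91 CPM (1.22 to 2.19) to 3.58 CPM (2.45 to 7.11), with no overlap between the groups (log2 1.04, SE 0.17, adjusted p = 0.00431). Oas2 went from a median of 4.30 CPM (2.98 to 5.17) to 8.10 CPM (4.96 to 13.9), and only replicate 7 of the repopulated libraries lay within the old range. Its log2 fold change was 0.96 (SE 0.16, adjusted p = 0.00431). Oasl2 was at log2 0.95 (SE 0.17, adjusted p = 0.0103), with a median of 22.2 CPM in old and 45.5 CPM in repopulated cord. Oas1b (log2 0.74, adjusted p = 0.0983), Oas3 (1.40, adjusted p = 0.117), Oasl1 (0.83, adjusted p = 0.242), Oas1g (1.30, adjusted p = 0.373) and Oas1c (0.01, adjusted p = 0.987) did not pass the test, while DESeq2 called Oas1b and Oas3 higher (adjusted p = 0.00859 and 0.013). Oas1a and Oas2 lie on chromosome 5, 146.4 kb apart.

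Other members of the list rose by similar amounts. Ifi27l2a, a small interferon-induced membrane protein, had groups that did not overlap, at 3.04 to 6.64 CPM in old (median 3.84) and 8.45 to 32.8 CPM in repopulated cord (median 10.9). It had the largest log2 fold change in the list, 1.67 (SE 0.30, adjusted p = 0.0119), and 1.35 without replicate 6. Ifi44 was at log2 1.32 (SE 0.21, adjusted p = 0.00431) and Usp18, a protease that removes Isg15 from proteins and dampens signalling at the interferon receptor, at 1.099 (SE 0.20, adjusted p = 0.0138). Lgals3bp, a secreted glycoprotein that binds galectin-3, was among the most evenly raised genes. It ran from 45.1 to 65.9 CPM in old (median 51.3) and from 77.2 to 114 CPM in repopulated cord (median 89.2), with no overlap (log2 0.80, SE 0.12, adjusted p = 0.00304). Of 18271 genes, 9 had repopulated libraries all above the old ones (0.0493%) and 0 had them all below. These were Irf7, Lgals3bp, Oas1a, Herc6, Fcrls, Trim30a, Ifi27l2a, H2-T22 and Rsad2, of which Rsad2, the antiviral enzyme viperin, did not pass the test (adjusted p = 0.0743). Rsad2 ran from 6.18 to 10.6 CPM in old and from 10.8 to 15.2 CPM in repopulated cord, so its groups were separated by a narrow gap.

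Some genes that rose lie outside the rule for named genes, and these are given here after their values had been seen. Among them were Herc6, the main ligase of Isg15 in mice (log2 0.41), Trim30a (0.72) and Trim34a (0.55) of the tripartite motif family, Rtp4 (0.87), Slfn9 (0.82), Parp9 (0.47), Gm5431 (1.32) and Gm6548 (0.47), with adjusted p from 0.00431 for Herc6 to 0.0484 for Gm5431. Of the 16 fits that left out 1 library, Herc6 and Trim30a were called in 16, Rtp4 in 14, Slfn9 in 10, Parp9 in 7, Gm6548 in 5, and Trim34a and Gm5431 in 4 each. Parp9 overlaps Dtx3l on the genome, and the library kit does not keep the strand, so reads in the overlap cannot be assigned to either gene. Gm6548 is annotated as a pseudogene of the elongation factor gene Eef1a1, and its reads may come from that gene or other copies. Eef1a1 itself was at log2 0.10 (adjusted p = 0.681). Of the 27 genes, 26 were placed by GENCODE M21 (GRCm38) on 11 chromosomes, and 14 of them overlap another annotated gene.

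**Figure D3:**
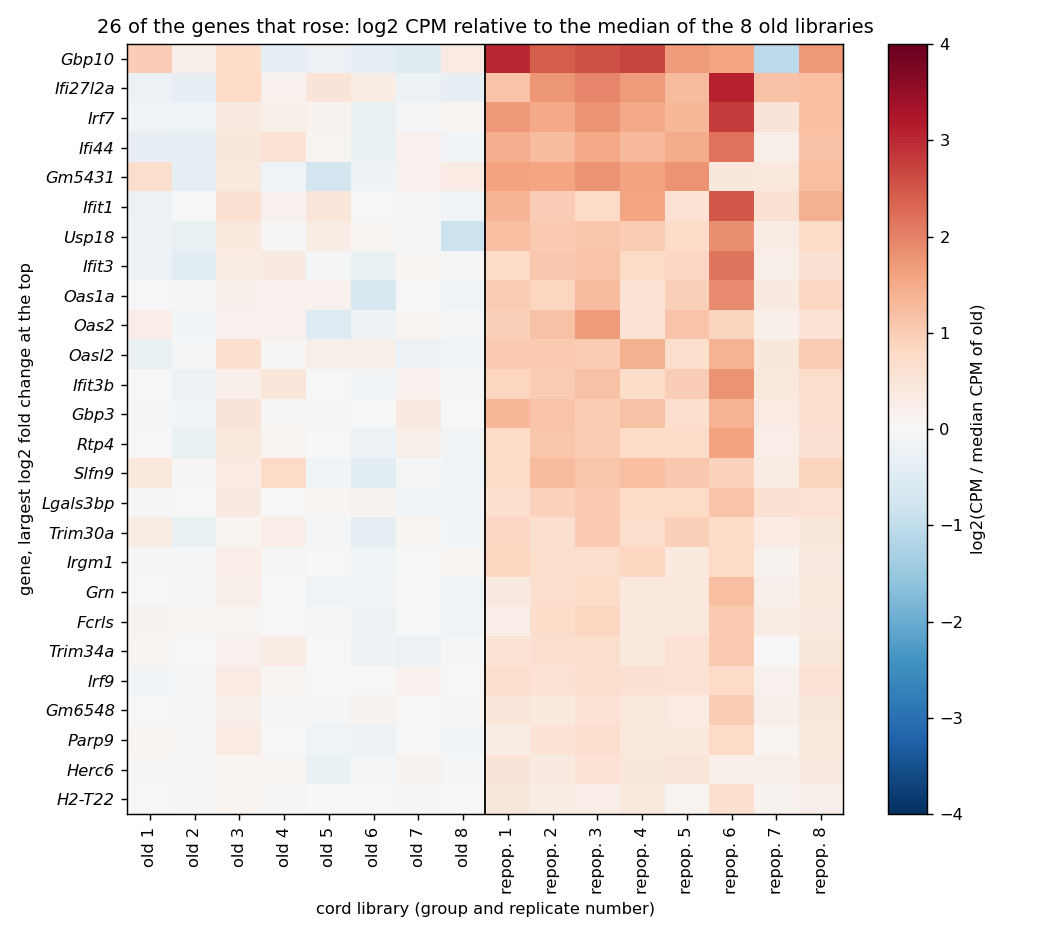
Each row is one of 26 of the 27 genes that rose and each column a cord library, 8 old to the left of the line and 8 repopulated to the right. Colour is log2 of CPM over the median CPM of the old libraries, and replicate 7 is the palest repopulated column.

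The repopulated libraries were not alike in these genes. Replicate 6 was the highest of the 16 libraries in 18 of the 27 genes, and replicate 7 was the lowest repopulated library in 22. In replicate 7, 8 of the 27 genes were above the old maximum, against 25 to 27 in the other repopulated libraries. The median log2 of the 27 genes against the old median was 0.27 in replicate 7, 1.15 in replicate 6 and from 0.61 to 1.01 in the other 6 libraries. In the old group replicate 3 was the highest, at a median log2 of 0.32, while the other 7 old libraries lay between -0.16 and 0.08. Without repopulated replicate 7 the number of genes that rose was 57, and without old replicate 3 it was 40. Why these libraries differ was not tested.

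The interferon gamma-induced GTPases, which act on membranes around intracellular microbes, had positive values with a wide spread between libraries. All 12 members tested had a positive log2 fold change and an unadjusted p under 0.05, beside 4.76% of all genes higher at that level. Of the 12, 2 rose, beside 0.148% of all genes, and the median was 0.79 (0.79 without replicate 6, where 3 rose). Gbp3 went from a median of 14.2 CPM (13.3 to 20.3) to 30.1 CPM (17.8 to 37.5), a log2 of 0.89 (SE 0.14, adjusted p = 0.00431). Irgm1, which regulates the other GTPases of its family, went from a median of 21.2 CPM (18.9 to 25.5) to 34.6 CPM (23.2 to 38.7), a log2 of 0.61 (SE 0.10, adjusted p = 0.00431). In Gbp3 and Irgm1 a single repopulated library lay within the old range. Iigp1 (log2 1.22, adjusted p = 0.0743), Igtp (0.91, adjusted p = 0.101) and Tgtp2 (1.27, adjusted p = 0.108) did not pass the test, and reads of Tgtp2 may be shared with its near copy Tgtp1. The count in this list moved with the libraries: 7 members rose without old replicate 3, 8 without repopulated replicate 7, and 9 with DESeq2. Gbp10, which lies outside the list, had the largest log2 fold change of all called genes, 1.94 (SE 0.39, adjusted p = 0.0394), at a low level of 0.258 to 0.715 CPM in old and 0.172 to 2.92 CPM in repopulated cord. For Gbp10, replicate 7 was the lowest of all 16 libraries. It was called in 6 of the 16 fits that left out 1 library and was not called by limma-voom.

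MHC class I genes and the proteins that load peptides onto them had positive values as well. Over all genes tested, 0.148% rose and 4.76% were higher at an unadjusted p under 0.05. In this list all 14 members tested had a positive value and an unadjusted p under 0.05. The median log2 fold change of the 14 was 0.61, or 0.46 without replicate 6. Of these, 1 rose, H2-T22, a non-classical class I gene that some gamma delta T cells recognise. It ran from 29.9 to 33.2 CPM in old (median 31.2) and from 33.4 to 48.6 CPM in repopulated cord (median 37.7), with no overlap (log2 0.32, SE 0.07, adjusted p = 0.0484). It was called in 5 of the 16 fits that left out 1 library, and class I genes are similar enough to share reads. B2m, the invariant chain of class I, went from a median of 219 CPM (201 to 296) to 324 CPM (254 to 578) and did not pass the test (log2 0.60, SE 0.14, adjusted p = 0.0979). The peptide transporter gene Tap1 was at log2 0.69 (adjusted p = 0.0738), H2-D1 at 0.55 (adjusted p = 0.134) and H2-K1 at 0.68 (adjusted p = 0.146). DESeq2 and limma-voom each called 6 members of the list.

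MHC class II genes, by which macrophages and other cells present antigen to helper T cells, were mixed in direction. Of 10 members tested none was called by edgeR, and 6 had a negative and 4 a positive log2 fold change. At an unadjusted p under 0.05, 5 were lower and 0 higher, beside 1.26% and 4.76% of all genes. The median log2 was -0.41, or -0.36 without replicate 6. H2-Aa ran from 29.6 to 61.3 CPM in old (median 35.6) and from 12.4 to 39.1 CPM in repopulated cord (median 21.02). In H2-Aa, 7 of 8 repopulated libraries were below the lowest old library and replicate 4 was within the old range (log2 -0.86, SE 0.22, adjusted p = 0.184). H2-Eb1 was at log2 -0.81 (SE 0.22, adjusted p = 0.252), the invariant chain gene Cd74 at -0.76 (SE 0.22, adjusted p = 0.338), H2-Ab1 at -0.60 (adjusted p = 0.681) and Ciita, the activator of class II transcription, at -0.54 (adjusted p = 0.681). DESeq2 called H2-Aa (adjusted p = 0.0248) and H2-Eb1 (adjusted p = 0.0432) lower, limma-voom called H2-Eb1 (adjusted p = 0.0473), and edgeR called both without repopulated replicate 4 (adjusted p = 0.0419 and 0.0388). H2-DMa and H2-DMb1, which load peptides onto class II, were at 0.08 and 0.02, and H2-DMb2 was at 0.41 with a mean of 0.403 CPM in old cord. The same motif was in 0 of the 7 class II promoters that matched.

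**Figure D4:**
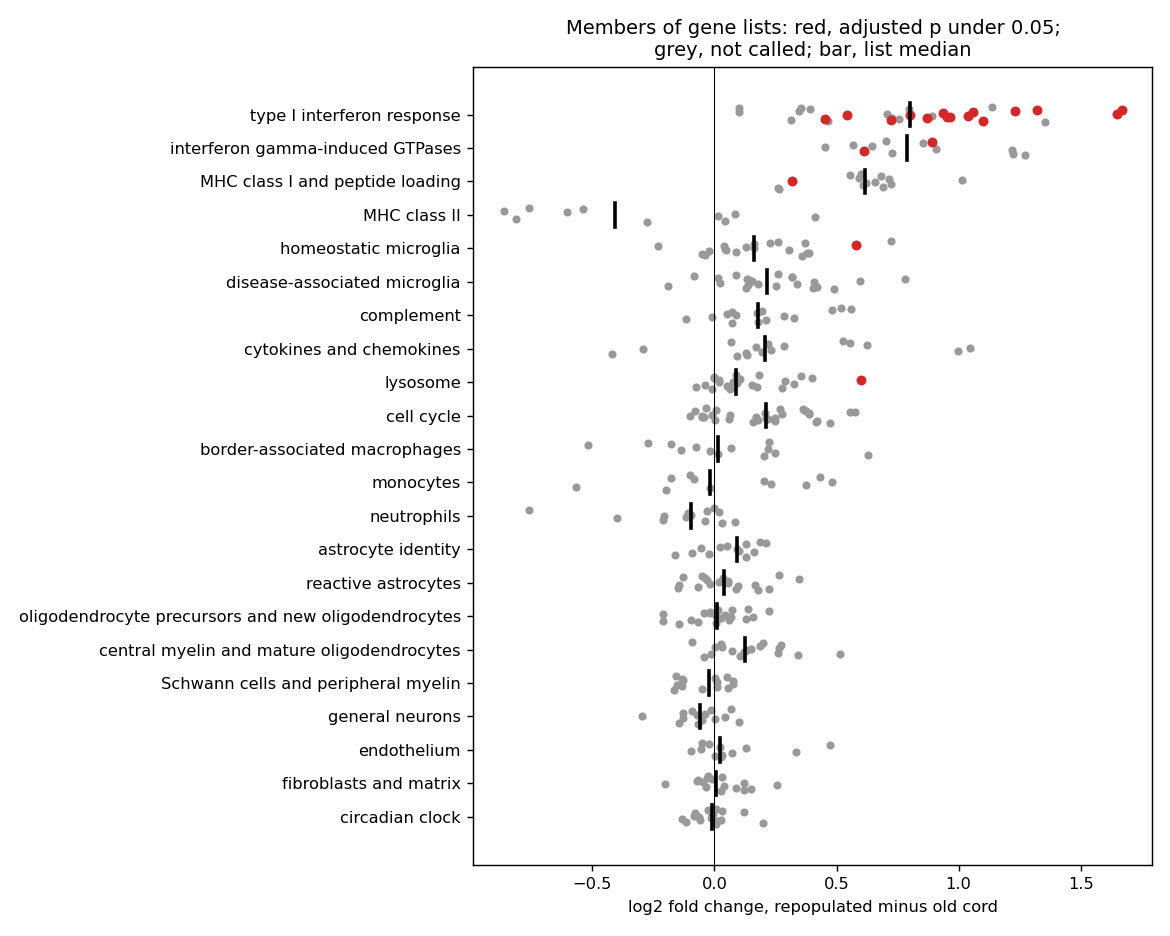
Log2 fold change of repopulated against old cord (horizontal axis) for the tested members of 22 gene lists (rows). Red points passed the test, grey points did not, and black bars are list medians, which are 0.80 for the type I interferon list and -0.41 for MHC class II.

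Homeostatic microglial genes were read 7 days after the inhibitor was withdrawn. Of 20 of them, 1 rose, beside 0.148% of all genes, and 7 were higher at an unadjusted p under 0.05, beside 4.76% of all genes. Of these 20, 16 had a positive value, and the median log2 was 0.16 with and without replicate 6. The gene that rose was Fcrls, which encodes a scavenger receptor related to Fc receptors and marks microglia. It ran from 19.6 to 24.7 CPM in old (median 22.5) and from 27.2 to 46.1 CPM in repopulated cord (median 29.7), with no overlap between the groups. The log2 fold change was 0.58 (SE 0.10, adjusted p = 0.00433), and 0.50 without replicate 6 (adjusted p = 0.00433). P2ry12, a receptor for released nucleotides, was at a median of 19.6 CPM in old and 20.7 CPM in repopulated cord (log2 0.05, SE 0.08, adjusted p = 0.832). Csf1r, the target of the inhibitor, ran from 90.4 to 118 CPM in old and from 102 to 137 CPM in repopulated cord (log2 0.23, SE 0.08, adjusted p = 0.681). Tmem119 was at log2 0.36 (SE 0.13), Cx3cr1 at 0.16 (SE 0.13) and Aif1 at 0.72 (SE 0.23), none of them called. Replicate 6 was the highest library in Cx3cr1 and Aif1, and without it Aif1 was at 0.34 and Cx3cr1 at -0.00.

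Of 22 genes of disease-associated microglia, a state seen in neurodegeneration and ageing, 0 were called and 9 were higher at an unadjusted p under 0.05, beside 4.76% of all genes, with a median log2 of 0.21 (0.11 without replicate 6). Spp1, or osteopontin, was at log2 0.13 (SE 0.08), Apoe at 0.26 (SE 0.17) and Cst7 at 0.60 (SE 0.21), each with an adjusted p of 0.681. Replicate 6 was the highest library in Apoe and Cst7, and without it Apoe was at -0.04, Cst7 at 0.35 and Spp1 at 0.09. DESeq2 called 1 member of that list, Ch25h (log2 0.77, adjusted p = 0.0278). In the lysosome list 1 of 22 members rose, beside 0.148% of all genes. That member was Grn, which encodes progranulin, a precursor of lysosomal granulins. Grn ran from 100 to 132 CPM in old (median 114) and from 132 to 260 CPM in repopulated cord (median 154). The lowest repopulated library, replicate 7, and the highest old one, replicate 3, were both at 132 CPM, and the log2 fold change was 0.60 (SE 0.11, adjusted p = 0.0103). The median of the lysosome list was 0.09. Of 15 complement genes 0 were called (median 0.18), and of 31 cell cycle genes 0 were called by edgeR (median 0.21). Mki67, a marker of dividing cells, was at a log2 of 0.25 (SE 0.22, adjusted p = 0.707). At an unadjusted p under 0.05, 5 complement, 6 cell cycle and 7 lysosome genes were higher and 0 were lower, beside 4.76% and 1.26% of all genes. DESeq2 called 2 cell cycle genes higher, Tpx2 (log2 0.41, adjusted p = 0.0314) and Cdc20 (log2 0.54, adjusted p = 0.0402).

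Lists that mark other cells were also read. Over all genes tested 0.148% rose and 0 fell, so 0 calls in lists of this size does not set them apart from other genes. Of border-associated macrophage markers, 0 of 13 were called by edgeR, and limma-voom called Siglec1 higher (log2 0.70, adjusted p = 0.0327). Of the 13, 7 had a positive and 6 a negative log2 fold change, with a median of 0.01 (-0.01 without replicate 6). The summed level of these markers ran from 70.0 to 112 CPM in old and from 85.9 to 130 CPM in repopulated cord. Monocyte (11 tested), neutrophil (13) and lymphocyte (9) markers had 0 calls each. Their median log2 values were -0.02, -0.10 and -0.37, and -0.01, -0.48 and -0.43 without replicate 6. Negative values were found in 6 monocyte, 10 neutrophil and 8 lymphocyte markers, and in 8756 of all 18271 genes tested. Summed neutrophil markers ran from 57.1 to 223 CPM in old cord (median 160). In repopulated cord they ran from 41.3 to 392 CPM (median 96.8), with replicate 6 the highest. Summed lymphocyte markers ran from 5.35 to 31.9 CPM in old and from 4.87 to 16.2 CPM in repopulated cord, and Cd3e, Cd3d and Cd3g were below the count filter. Markers of astrocytes, oligodendrocyte precursors, central myelin, Schwann cells, neurons, endothelium and fibroblasts had 0 calls each, with list medians from -0.06 for general neurons to 0.13 for central myelin. Motor neuron (-0.09), dorsal root ganglion (-0.23) and ependymal lists (0.29, with 10 of 10 members positive) also had 0 calls, and without replicate 6 their medians were -0.03, -0.08 and 0.11. Gfap, the intermediate filament of astrocytes, was at log2 0.35 (SE 0.14, adjusted p = 0.681). Pdgfra, of oligodendrocyte precursors, was at -0.10 (SE 0.11) and Mbp, of myelin, at 0.07 (SE 0.09), neither called. Skeletal muscle genes had a median of 1.78 with 0 calls, and their summed level was 3365 CPM in repopulated replicate 3 and 776 CPM in old replicate 8. The other 14 libraries were between 7.77 and 135 CPM for that list, and its part in the results was not tested. Ribosomal protein genes had a median of 0.39 with 0 of 81 called, and 0.03 without replicate 6.

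Interferon genes themselves were hardly seen at this depth. Of 21 genes for interferons in the table, 0 had enough reads to be tested and 7 had at least 1 read, with 18 reads in all in the 8 old and 17 in the 8 repopulated libraries. Ifng, the gene for interferon gamma, had 9 of those reads in old and 6 in repopulated cord, and Ifnb1 had 1 and 0. A difference in these transcripts was not detectable at this depth. The receptor chains and kinases, a group chosen after the values had been seen, were not called. Ifnar1 was at 63.6 ± 2.87 CPM (SD, n = 8) in old and 65.7 ± 2.59 CPM in repopulated cord, and Ifnar2, Ifngr1, Ifngr2, Jak1, Jak2 and Tyk2 had log2 fold changes from -0.12 for Jak1 to 0.09 for Ifnar2. Among 16 cytokine and chemokine genes tested 0 were called by edgeR. Cxcl10, a chemokine that interferons induce, went from a median of 2.29 CPM (1.75 to 3.75) to 5.04 CPM (3.10 to 8.33), a log2 of 1.05 (SE 0.26, adjusted p = 0.134). DESeq2 (adjusted p = 0.0139) and limma-voom (adjusted p = 0.0327) called Cxcl10 higher.

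Values against young cord are set beside these, and they share the old or the repopulated libraries with the comparison above. Over all genes, 892 (4.88%) were higher and 231 (1.26%) lower in old than in young cord, and 1331 (7.28%) were higher and 508 (2.78%) lower in repopulated than in young cord. Of the 27 genes, 10 were called higher in old than in young cord, and 27 were called higher in repopulated than in young cord. The 27 genes were picked as low in these same old libraries and high in these same repopulated libraries. Both counts are therefore partly fixed by that choice and are no separate evidence. Fcrls had a log2 of 1.15 for old minus young (SE 0.10, adjusted p = 7.4e-09) and 1.73 for repopulated minus young, and its young libraries ran from 9.07 to 11.3 CPM. Irf7 was at 0.23 (SE 0.23, adjusted p = 0.758) for old minus young and 1.88 for repopulated minus young, with young libraries at 3.32 to 8.77 CPM. Grn was at 0.61 for old minus young (adjusted p = 0.000293), and Lgals3bp at 0.54 (adjusted p = 0.00343). H2-Aa was at 0.30 for old minus young.

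The same contrast in sorted brain microglia, from libraries that share no sample with the cord, was read in a joint fit of 48 libraries and 19110 genes. Whether cord and microglia were taken from shared animals is not in the labels. Cord libraries mix many cell types, while the microglia were sorted from brain. Cell number, cell mixture and region therefore cannot be told apart in a difference between the contrasts. In that fit 22 of the 27 genes were called higher in repopulated microglia, where 8.95% of all genes were, and 0 lower. The difference between the contrasts, cord minus microglia, was called for 1441 genes higher (7.54%) and 666 lower (3.49%), with a median of 0.10 over all genes, and for 3 of the 27. Fcrls was 0.57 in cord and -0.01 in microglia (difference 0.58, SE 0.11, adjusted p = 0.000304). H2-T22 was 0.31 in cord and 0.89 in microglia (difference -0.58, SE 0.15, adjusted p = 0.012). Lgals3bp was 0.79 in cord and 1.28 in microglia (difference -0.49, SE 0.16, adjusted p = 0.0339), and this difference no longer passed with total-count scaling (-0.38, adjusted p = 0.0821). Irf7 was at 1.64 in cord and 1.36 in microglia, a difference of 0.28 (SE 0.31, adjusted p = 0.669), which with its SE allows either tissue to be higher. Herc6, Ifi44, Ifit3b and Gbp10 were called in cord and not in microglia, but their differences did not pass the test (adjusted p from 0.114 for Ifi44 to 0.843 for Gbp10).

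**Figure D5:**
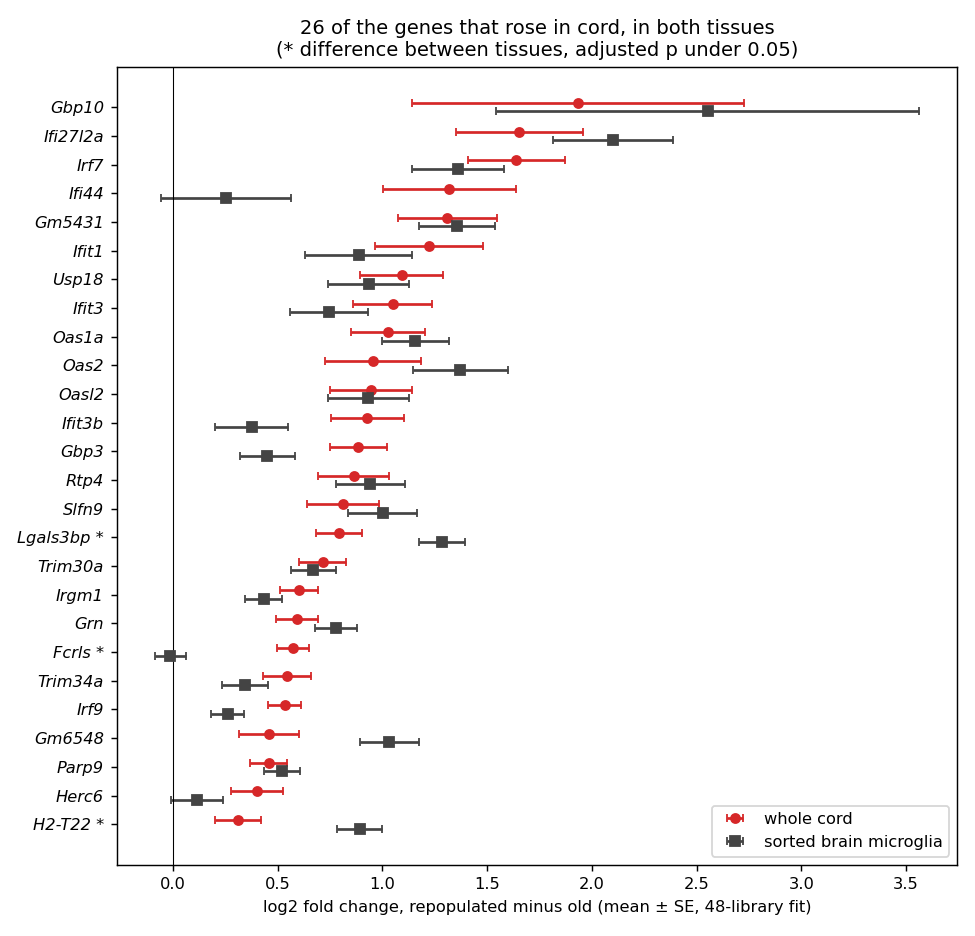
Log2 fold change of repopulated against old (horizontal axis, with SE) for 26 of the 27 genes that rose in cord, in whole cord (circles) and in sorted brain microglia (squares), from the fit over 48 libraries. Stars mark the 3 genes whose difference between tissues passed the test: Fcrls, H2-T22 and Lgals3bp.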

How the data were processed

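Polyadenylated RNA was sequenced from whole spinal cord with a kit that does not keep the strand, per the labels' protocols. Reads were aligned with STAR 2.5.2b to GRCm38.p5, per the submitters' processing notes; no source used here names the counter or the annotation. The authors deposited raw read counts and TPM (length-scaled levels) for 35870 genes, with gene lengths, and 100% of TPM values of at least 1 equalled length-scaled counts within 1%. Counts were filtered with filterByExpr (minimum count 10, minimum total 15), scaled by TMM and fitted with edgeR 4.0.16 (R 4.3.3) over all 24 cord libraries. The contrast was tested with the quasi-likelihood test and Benjamini-Hochberg adjustment over 18271 genes, called at 0.05. All adjusted p-values are from that test unless another tool is named. Microglia were compared through an interaction over 48 libraries. Alternatives used DESeq2 1.42.0 and limma 3.58.1, the latter also on the deposited TPM. On simulated counts, 69% of genes changed by a log2 of 0.5 and 93% of those changed by 1 were recovered (100 genes each), and 15 unchanged genes were called. The changed genes had a mean of at least 1 CPM. No outlying library was simulated, so these shares may not hold for the real libraries. No pair of replicates was a duplicate: over 84 pairs the chi-square per gene was 3.40 to 196. Genes were named as the 12 largest rises (mean level 1 CPM or more, predicted genes left out), up to 4 called members of each list with the smallest adjusted p, a panel of 12 genes, and the 4 largest differences from microglia on each side among called genes. List members that were not called, and other Oas genes, were named after their values had been seen. The genes and lists were chosen with earlier results of these data known. Of the 27 genes called, 1 is not reported here by name.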

Additional observations from a re-analysis of the deposited data

Results flagged for a closer look

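A library was singled out where its gap to the nearest of the 8 in its group was large against the group's range by Dixon's criterion. Chance singles out about 1 in 20 groups, and 41 outlying values were found in 168 groups of 8, of which 31 were repopulated replicate 6, the library with the high share of ribosomal protein counts (3.17%) and the lowest share of mitochondrial counts (2.92%).

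Repopulated replicate 6 stood above its group in Irf7 (42.9 CPM), Oas1a (7.11 CPM), Ifit3b (44.4 CPM), Grn (259.7 CPM), Ifi27l2a (32.8 CPM), Usp18 (15.2 CPM), Ifit1 (75.4 CPM), Ifit3 (125.6 CPM) and Gm6548 (18.5 CPM). The same held for the uncalled genes Cx3cr1 (118.8 CPM), Aif1 (30.5 CPM), Apoe (5643 CPM), Cst7 (12.7 CPM) and Mbp (13335 CPM). Its summed levels were the highest for disease-associated microglia (11032 CPM), type I interferon response (1113 CPM), MHC class I (1804 CPM), cytokines (103.7 CPM), cell cycle (601 CPM), p53 and senescence (598 CPM) and lysosome (5916 CPM). They were also the highest for central myelin (39333 CPM), ependymal cells (129 CPM), the unfolded protein response (1309 CPM), snoRNA host genes (459 CPM), ribosomal proteins (34987 CPM) and oxidative phosphorylation (22858 CPM). It was the lowest for sterol efflux (664 CPM) and TGF-beta signalling (273 CPM).

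Old replicate 3 was the highest old library in the summed type I interferon (612 CPM), GTPase (195 CPM), MHC class I (969 CPM), Schwann cell (7658 CPM) and red cell (423.1 CPM) lists. Old replicate 1 was high in lymphocyte markers (31.9 CPM) and old replicate 8 in skeletal muscle genes (776 CPM). Repopulated replicate 3 was high in skeletal muscle (3365 CPM) and in pericyte and smooth muscle genes (752 CPM). Repopulated replicate 7 was the lowest of its group in Irf9 (22.8 CPM).

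The contrast in cord differed from that in sorted microglia, by the interaction in edgeR's quasi-likelihood test, for Fcrls (log2 difference 0.58), H2-T22 (-0.58) and Lgals3bp (-0.49) among the genes that rose, and for Cx3cr1 (0.61) and Mbp (1.46) in the panel of 12 genes. In that fit Cx3cr1 had a log2 fold change of 0.16 in cord and -0.45 in microglia. The cord value leans on repopulated replicate 6, without which the fit over cord libraries gave Cx3cr1 a log2 of -0.00. Mbp was at 0.06 in cord and -1.39 in microglia. Neither gene was called in cord.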

How the results depend on the processing

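Across 28 other settings, every one of the 27 genes kept a positive log2 fold change wherever it was tested, and 9 were called in all of them: Irf7, Lgals3bp, Grn, Ifi27l2a, Ifi44, Ifit3b, Oas1a, Usp18 and Gbp3. The number of calls was 66 with DESeq2 (62 higher, 4 lower), 53 with limma-voom (52 higher, 1 lower), 13 on log2(TPM + 1) and 12 on log2(TPM + 0.1). On those TPM scales the median of all genes moved to -0.10 and -0.12. Leaving out 1 library at a time gave 16 to 57 calls, 16 to 57 of them higher and 0 to 2 lower; the count was 16 without old replicate 6, 17 without old replicate 8, 18 without old replicate 2 or 7, 40 without old replicate 3 and 57 without repopulated replicate 7. The 2 lower genes came without repopulated replicate 4. No pairing by replicate number was seen in expression: same-numbered libraries correlated from -0.42 to 0.17 and none matched its own number best. These correlations cannot show whether the numbers mark another shared factor, such as a preparation batch. A fit with the replicate number as a block gave 19 calls, 18 of them among the 27. The difference from microglia was called for 3307 genes (2819 higher) with total-count scaling, for 930 higher with limma-voom and for 1349 lower without repopulated replicate 6, and the cause was not tested. TMM within each tissue was added after seeing the data. Depth limits genes of few reads, such as the interferons, and p-values cover only the spread between these libraries.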

Other observations

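DESeq2 and limma-voom, but not edgeR's quasi-likelihood test, both called 16 further genes higher and 1 lower. The higher ones included Bst2, Rsad2, Slfn5, Tap1, Mx2, B2m, Ifitm3, H2-T23, Xaf1, Gbp6, Trim12a, Cxcl10, H2-K1 and H2-D1, and the lower one was H2-Eb1. DESeq2 alone also called Pla2g2d lower (log2 -0.76, adjusted p = 0.00975), which encodes a secreted phospholipase.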
